A study of Bos taurus with 64 samples.

Results

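ETS2 and IFRD1 are transcriptional regulators that were chosen by their measured values on these arrays, on which their transcripts were higher in both muscles of stressed cows than in cows handled with limited stress. The members were the probes that the array files name ETS2 or IFRD1, which gave 2 genes of 5449 names on the array, with 1 probe each of 13285 probes in all. Because the stress contrast chose them, their stress difference is given below as a description, without a test, and tests are given for diet, for muscle and for the relation between cows of the same stress group. Expression was measured with one-colour Agilent oligonucleotide arrays in the longissimus thoracis (LT), a muscle of the back, and the semitendinosus (ST), a muscle of the hind leg, of 32 Normand cows, 64 arrays in all.

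All cows were aged about 4.5 years and were finished on straw and concentrate enriched in lipids from linseed and rapeseed. This ration alone is called the control diet here (Lipid-rich in the labels), and the EP diet was the same ration with vitamin E and a mixture of plant extracts rich in polyphenols (Lipid VitE PERP in the labels). The stressed group (Moderated stress in the labels) underwent transport without other cattle and then 30 min in a labyrinth at a site new to them, with noise from people. The limited stress group had a companion during transport and quiet handling. The 16 stressed and 16 limited stress cows were divided equally between the diets, 8 cows per group in each muscle, and both muscles came from the same animals within 15 min of slaughter. Slaughter ran over 16 weeks, and the slaughter day of a cow is not in the labels used here, so it could not enter a model. The stress treatment combined transport, isolation, noise and walking, which cannot be told apart in these groups.

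ETS2 is a transcription factor of the ETS family, whose members bind DNA at a short purine-rich core. It is activated through phosphorylation by the ERK branch of the MAP kinases, and matrix proteases and other early response genes are among the genes it is known to regulate. IFRD1, also known as TIS7 or PC4, has no DNA-binding domain of its own and acts as a co-regulator with histone deacetylase complexes. It was first described as an early gene induced by growth factors, and in muscle it has been linked to regeneration and to the activity of the myogenic factor MyoD. Both are therefore regulators whose own transcripts can rise quickly, and neither is specific to muscle.

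The ETS2 probe A_73_118410 lies on chromosome 1 of the build HGSC Btau_3.1 (chr1:154613697-154613756, plus strand) and begins at base 3301 of the transcript in the annotation of the files. The IFRD1 probe A_73_111925 lies on chromosome 4 of the same build (chr4:58263865-58263924, minus strand) and begins at base 2162 of its transcript. The exon and the untranslated or coding part that hold the probes were not analysed here. The array also carried custom probe sets without a gene name, and for each member there was 1 set of 5 probes in which a probe had a run of 25 or more bases in common with the named probe. The following 30 bases of each named probe, shown because they tie the unnamed set to the gene, run from base 6 of the ETS2 probe and from base 2 of the IFRD1 probe, with the bases shared with the nearest custom probe in capitals.
ETS2 named probe: tggctcgagcCAAGAGTCATGGAAAATCAA
IFRD1 named probe: cttgaccactGAGGGCAGTAACACTAATTT
The shared run was 45 bases long for ETS2 and 49 bases long for IFRD1. The last-numbered custom probe of each set shared no more than 5 bases in a row with the named ETS2 probe and 8 with the named IFRD1 probe, and is shown by its first 30 bases as what is taken here, from the set it belongs to, as a separate reading of the same transcript.
ETS2 custom probe 5: tttattttcttgcacacagaatgcccagag
IFRD1 custom probe 5: gtatttaatctctagagacagtttttatct
All 6 probes of each gene were well above background on all 64 arrays, and none was saturated. One value of an ETS2 custom probe was set aside by the scanner software as uneven and was left out of its fit.

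Values are log2 of the signal over the 75th percentile of the signals of the same array, so 0 is a level equal to that percentile. The 75th percentile ranged from 2470 to 4202 signal units over the arrays, and 71.4 to 80.9% of the spots were well above background. Of 11 skeletal muscle markers, 8 had a named probe, among them ACTA1, CKM and DES, and all 8 passed the filter on dim probes in each muscle. Of the markers of 9 cell and fibre types (59 genes listed), 27 were tested in the LT and 26 in the ST, of which 0 passed an adjusted p of 0.1 for stress by limma in either muscle. At an unadjusted p of 0.05, 2 of them passed in the LT and 6 in the ST. The 2 in the LT were satellite cell markers, of which 3 were tested, with differences from -0.63 (MYF5) to -0.09 (CD34). In the ST, 1 of 3 satellite cell markers passed this level, with differences from -0.47 (MYF5) to -0.06 (CDH15). Among all probes tested for stress by limma, 1674 of 10441 LT probes and 1790 of 10305 ST probes passed this level. Of 7 blood markers listed, 3 had a named probe, of which SLC4A1 was not well above background on any array of either muscle, while the haemoglobin gene HBB was tested in the LT with a difference of 0.11 (adjusted p = 0.912). In whole muscle, fewer cells of a type and less RNA per cell cannot be told apart.

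In the LT, ETS2 was higher in stressed cows than in cows handled with limited stress. Limited stress cows had a lowest value of -1.63 (cow270), a median of -0.94 and a highest value of 0.46 (cow316). Stressed cows had a lowest value of -0.11 (cow324), a median of 0.13 and a highest value of 1.31 (cow303). Each of the 16 stressed cows exceeded the limited stress median, and the groups overlapped through cow316 alone, the 1 limited stress cow above the lowest stressed cow. The fitted stress difference of ETS2 in the LT was 1.15 on the log2 scale (SE 0.162), a 2.22-fold higher level.

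In the ST, ETS2 ranged from -1.35 (cow270) through a median of -0.61 to 0.13 (cow302) in limited stress cows. It ranged from -0.11 (cow330) through a median of 0.56 to 1.28 (cow321) in stressed cows. Here 15 of 16 stressed cows were above the highest limited stress cow, and the overlap came from the stressed cow330 and from 2 limited stress cows. The stress difference of ETS2 in the ST was 1.23 (SE 0.137), or 2.34-fold.

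IFRD1 was also higher in the LT of stressed cows. Its values in limited stress cows ran from -0.91 (cow280) through a median of -0.06 to 1.08 (cow316). In stressed cows they ran from 0.59 (cow265) through a median of 1.23 to 2.09 (cow269). Cow316 was again the 1 limited stress cow that lay above the lowest stressed cow, and 9 of 16 stressed cows lay above it. The stress difference of IFRD1 in the LT was 1.41 (SE 0.166), or 2.65-fold.

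In the ST, IFRD1 ran from -0.59 (cow280) through a median of 0.34 to 1.39 (cow316) in limited stress cows. In stressed cows it ran from 0.88 (cow330) through a median of 1.62 to 2.49 (cow321). All 16 stressed cows were above the limited stress median, and 2 limited stress cows were above the lowest stressed cow. The stress difference of IFRD1 in the ST was 1.25 (SE 0.170), or 2.38-fold.

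**Figure D1:**
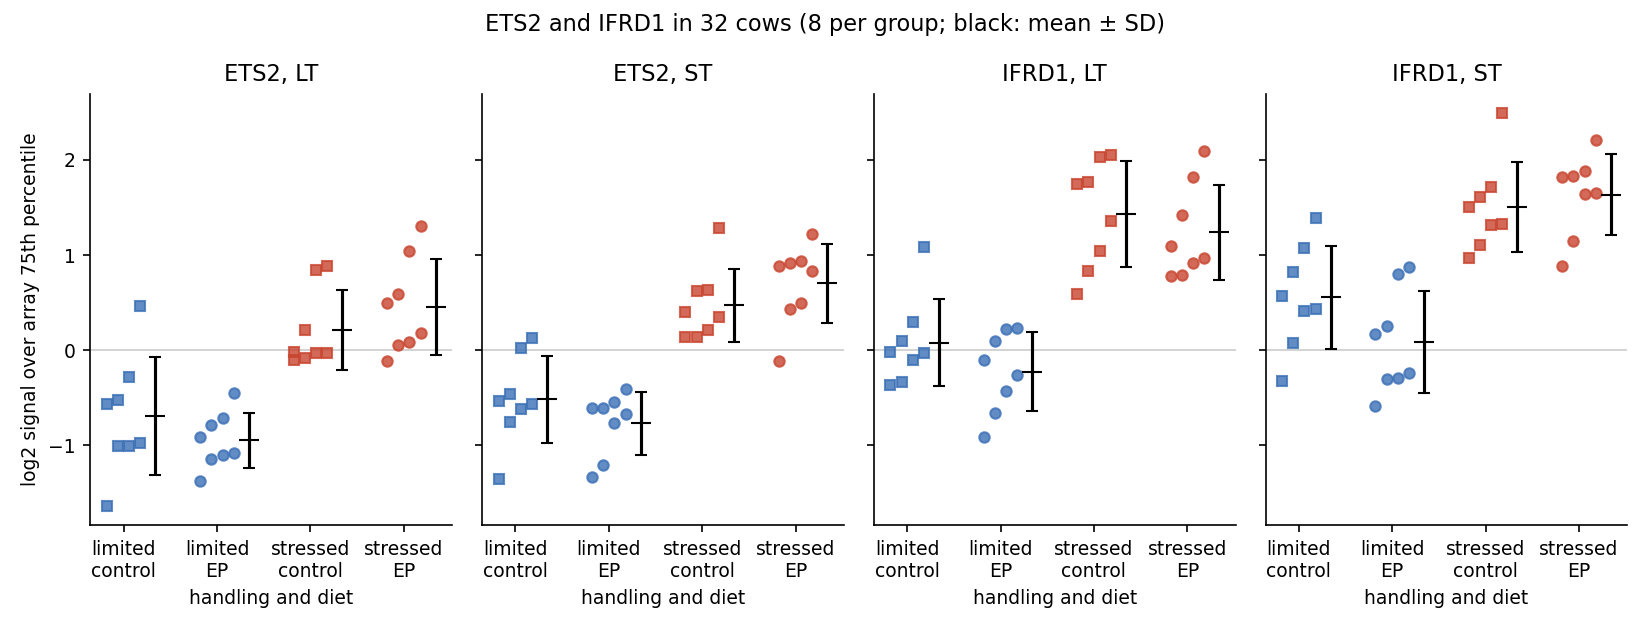
Level of ETS2 and IFRD1 in each cow (y axis, log2 signal over the 75th percentile of the array) by handling and diet (x axis), in the LT and the ST, with 8 cows per group. Blue points are limited stress cows, red points stressed cows, squares the control diet and circles the EP diet, and the black bars give mean ± SD. On the EP diet the blue and red points do not overlap in any of the panels. The genes were chosen by the stress contrast, which favours such a separation. The share of all probes that separate the groups in this way was not computed, so nothing is read from it.

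For comparison, 2.48% of the 10441 probes tested in the LT and 1.6% of the 10305 probes tested in the ST were higher in stressed cows at an adjusted p under 0.1. The rule chose both members from this contrast, so nothing is read from their place among these probes. Of all probes tested, 75 had a larger stress difference than ETS2 in the LT, and 59 did in the ST. The numbers for IFRD1 were 41 and 53. The median stress difference of all probes was -0.05 in the LT and -0.06 in the ST.

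The probes of the unnamed sets gave the same description. Over the 6 probes of ETS2, the stress difference lay between 1.11 and 1.22 in the LT and between 1.20 and 1.25 in the ST. Over the 6 probes of IFRD1 it lay between 1.31 and 1.51 in the LT and between 1.23 and 1.37 in the ST. Once the means of the 4 groups were removed, each named probe followed the probes of its set over the 32 cows, with r of 0.95 to 0.99 (LT) and 0.96 to 0.99 (ST) for ETS2. For IFRD1 these r were 0.86 to 0.99 in the LT and 0.77 to 0.997 in the ST. The cow-to-cow spread described below was thus seen by several probes of each transcript on the same array, which share the RNA sample.

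**Figure D2:**
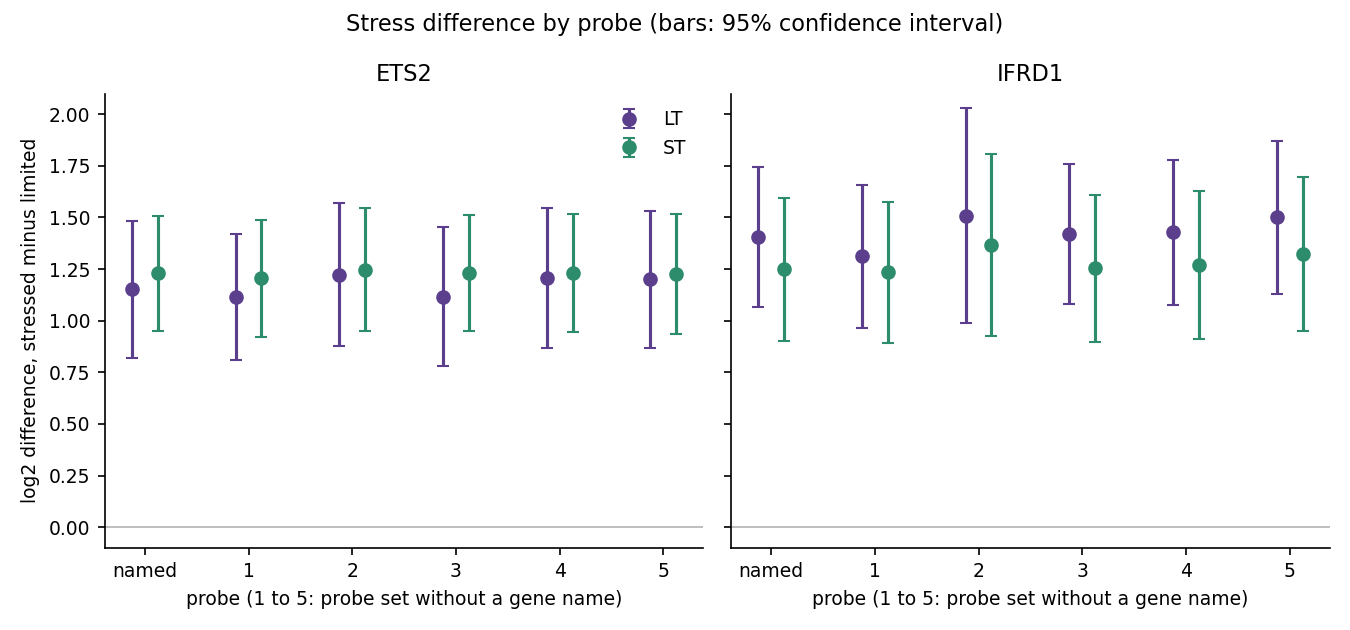
Stress difference (y axis, log2, stressed minus limited stress) of the 6 probes of ETS2 and of IFRD1 (x axis, the named probe and the 5 custom probes), in the LT (purple) and the ST (green), with 95% confidence intervals from limma as bars. Every point lies between 1.11 and 1.51.

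The arrays were hybridised on 4 slides in the LT and 5 slides in the ST, and each slide held both stress groups of a single muscle. Within single slides, the difference of the group means for ETS2 was 0.73 to 1.59 in the LT and 0.71 to 1.78 in the ST. For IFRD1 it was 1.01 to 1.78 in the LT and 1.096 to 1.63 in the ST. A slide held between 1 and 6 cows of a stress group. Within single scan days the difference lay between 0.88 and 1.42 for ETS2 in the LT, 0.96 and 1.78 for ETS2 in the ST, 1.38 and 1.43 for IFRD1 in the LT, and 1.23 and 1.59 for IFRD1 in the ST. A scan day held between 1 and 9 cows of a stress group. Stressed cows were higher on every slide and every scan day for both genes. The stress contrast on these same arrays chose the genes, so this direction is largely built into the choice.

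Whether the diet changed ETS2 or IFRD1 was tested by limma in each muscle, over both stress groups. Neither gene passed an adjusted p of 0.1 for the EP against the control diet. For ETS2 the EP minus control difference was -0.01 in the LT (95% CI -0.34 to 0.33, adjusted p = 0.999) and -0.01 in the ST (95% CI -0.29 to 0.27, adjusted p = 0.991). For IFRD1 it was -0.25 in the LT (95% CI -0.59 to 0.09, adjusted p = 0.980) and -0.17 in the ST (95% CI -0.52 to 0.17, adjusted p = 0.949). The intervals leave room for an IFRD1 level on the EP diet between 0.666-fold and 1.06-fold that on the control diet in the LT. Over all probes tested, 0 passed for diet in either muscle (0%). None of the 12 probes of these genes had an unadjusted p under 0.05 for diet, the lowest being 0.0899.

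The fitted stress difference was larger on the EP diet than on the control diet for both genes and both muscles, but the test of this interaction was not passed, and for IFRD1 in the LT the direction turned with the scaling to control features (-0.19) and without cow316 (-0.028). In the LT, the stress difference of ETS2 was 1.40 for EP cows against 0.90 for control diet cows, and in the ST it was 1.47 against 0.99. For IFRD1 the corresponding values were 1.46 against 1.35 in the LT and 1.55 against 0.95 in the ST. The interaction of ETS2 was 0.50 in the LT (95% CI -0.16 to 1.16, adjusted p = 0.9998 by limma) and 0.48 in the ST (95% CI -0.08 to 1.04, adjusted p = 0.969). That of IFRD1 was 0.12 in the LT (95% CI -0.56 to 0.79, adjusted p = 0.9998) and 0.60 in the ST (95% CI -0.09 to 1.29, adjusted p = 0.969). The intervals include no difference between the diets, and their upper limits correspond to a fold of stress on the EP diet between 1.73 and 2.45 times that on the control diet. Unadjusted, the p of the interaction was 0.0884 for ETS2 and 0.0873 for IFRD1 in the ST. There, the arrays of stressed cows on the control diet were on slides 3 and 5 only (3 and 5 arrays), so slide and this interaction are partly mixed. With the slide as a block, the ST interaction was 0.26 for ETS2 (SE 0.321, adjusted p = 0.876 by limma) and 0.44 for IFRD1 (SE 0.397, adjusted p = 0.820). As with diet, 0 probes of the array passed for this contrast.

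On the EP diet, all 8 stressed cows lay above all 8 limited stress cows in each muscle for each gene. The genes were chosen by the stress contrast, which favours such a separation. The share of all probes that separate the groups in this way was not computed, so nothing is read from these counts. On the control diet the groups did not overlap for ETS2 in the ST only. They overlapped through 1 limited stress cow for ETS2 and for IFRD1 in the LT, and through 2 limited stress cows for IFRD1 in the ST.

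Between muscles, both genes had lower values in the LT than in the ST of most cows with the scaling to the 75th percentile, but for ETS2 in limited stress cows this direction turned with the scaling to control features and without scaling. Within limited stress cows, IFRD1 was lower in the LT than in the ST of 14 of 16 cows, with a median LT minus ST difference of -0.39 and a range from -1.44 (cow302) to 0.62 (cow259). The fitted difference was -0.39 (SE 0.170, adjusted p = 0.0627 by limma), which passed the threshold of 0.1, as did 24.2% of all 10254 probes in this direction. The 5 custom probes of IFRD1 had differences of the same sign and none of them passed, so 1 of 6 probes passed and the gene as a whole did not meet the rule of 80% of its probes. With the cow as a block, 4 of 6 probes passed, beside 3307 of all 10254 probes that were lower in the LT in that fit. The difference was -0.07 (adjusted p = 0.817) with the scaling to control features and -0.21 (adjusted p = 0.393) without scaling, and with the slide as a random block it had an adjusted p of 0.163. Each slide held 1 muscle, so slide and muscle can be told apart only through the spread between slides of the same muscle.

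In stressed cows IFRD1 was lower in the LT of 10 of 16 cows, and the fitted difference was -0.24 (SE 0.170, adjusted p = 0.292). ETS2 was lower in the LT of 12 of 16 limited stress cows and of 12 of 16 stressed cows. Its fitted LT minus ST difference was -0.18 in limited stress cows (SE 0.153, adjusted p = 0.383) and -0.25 in stressed cows (SE 0.153, adjusted p = 0.200). With the cow as a block the ETS2 difference in stressed cows had an adjusted p of 0.0455, and 2 of its 6 probes then passed. In that fit 2907 of all 10254 probes were lower in the LT of stressed cows. The ETS2 difference in limited stress cows changed sign with the scaling, at 0.15 with control features and 0.01 without scaling. Without the block, 22.1% of all probes were lower in the LT of stressed cows at an adjusted p under 0.1.

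Whether stress moved the genes by different amounts in the muscles was tested over all 64 arrays. The interaction of muscle and stress (LT minus ST) was -0.08 for ETS2 (95% CI -0.51 to 0.36, adjusted p = 0.999 by limma) and 0.16 for IFRD1 (95% CI -0.33 to 0.64, adjusted p = 0.999). The genes were picked as raised in both muscles, which bears on this contrast, and the intervals still allow the fold of stress to differ by 1.56-fold between muscles for IFRD1. Over all probes, 0 passed for this interaction in this fit, which took both muscles of a cow as independent. With the cow as a block, the interaction was -0.08 for ETS2 (SE 0.152, adjusted p = 0.967 by limma) and 0.16 for IFRD1 (SE 0.181, adjusted p = 0.925). Of 10254 probes, 13 were then higher and 2 lower for this contrast at an adjusted p under 0.1.

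**Figure D3:**
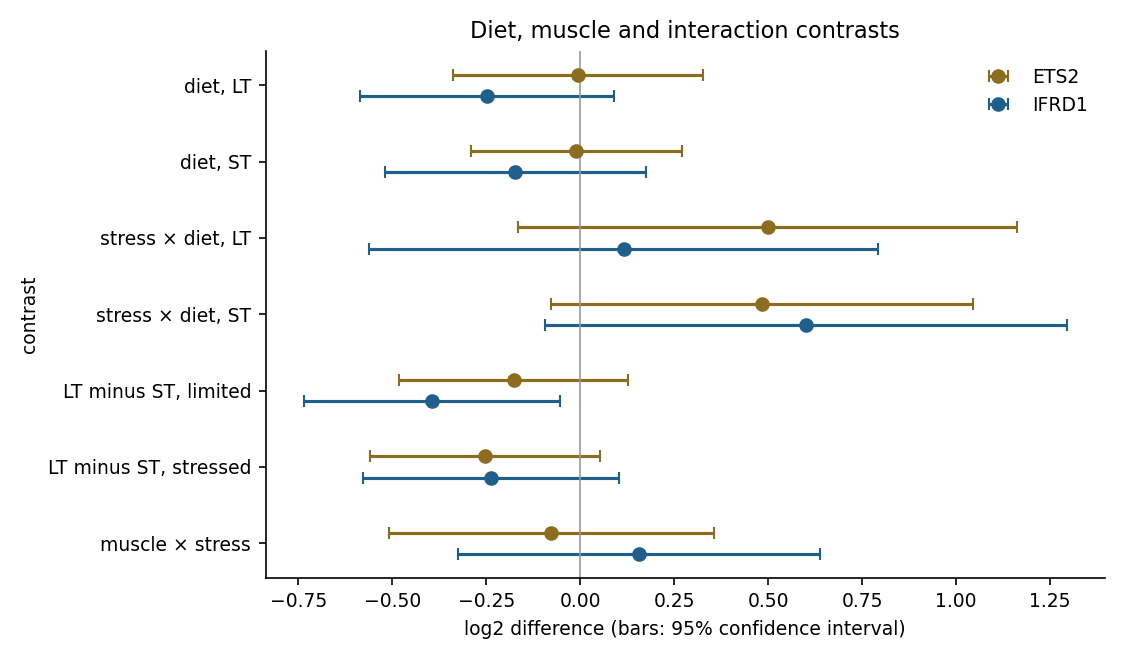
Fitted log2 differences (x axis) with 95% confidence intervals for the contrasts other than stress (y axis), that is diet, stress by diet, LT minus ST in each stress group, and muscle by stress, which the choice of genes raised in both muscles touches, for ETS2 (brown) and IFRD1 (blue). All plotted intervals include 0 except that of IFRD1 for LT minus ST in limited stress cows. The muscle contrasts shown come from the fit without the cow as a block. With that block, the named ETS2 probe passed the threshold in stressed cows (-0.25, SE 0.107, adjusted p = 0.0455 by limma), and 2 of the 6 ETS2 probes did in all.

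Cows of the same stress group varied in ETS2 with an SD of 0.486 (LT) and 0.407 (ST) under limited stress, while the LT minus ST difference of the same cows had an SD of 0.278. Within the 16 limited stress cows, the ETS2 level in the LT followed that in the ST with Pearson's r = 0.82 (permutation p = 6.0e-05, adjusted p = 0.00048 over 8 relations) and Spearman's rho = 0.80 (permutation p = 0.00038, adjusted p = 0.00304). Within the 16 stressed cows r was 0.74 (permutation p = 0.00078, adjusted p = 0.00293) and rho was 0.71 (permutation p = 0.00254, adjusted p = 0.00677). Without the 2 cows farthest from the median in the LT, r was 0.73 and 0.65. With the slide effects removed, r was 0.82 and 0.76, so the relation held with slides accounted for. Cows high in ETS2 in one muscle thus tended to be high in the other, in each of the stress groups. All 8 relations were taken over both diets with the diet means left in, so a difference between the diets can be part of them. With the scaling to control features the relation did not pass in limited stress cows (r = 0.35, permutation p = 0.182).

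For IFRD1 the correlations between muscles were lower than those for ETS2. In limited stress cows r was 0.54 (permutation p = 0.0280, adjusted p = 0.0320) and rho was 0.29 (permutation p = 0.279, adjusted p = 0.279). Without cow280 and cow316, the lowest and the highest in the LT, r was 0.07, so this relation rests on those cows, and without cow316 alone r was 0.32 (permutation p = 0.244). In stressed cows r was 0.51 (permutation p = 0.0443, adjusted p = 0.0443) and rho was 0.51 (permutation p = 0.0475, adjusted p = 0.0634), and r was 0.33 without cow269 and cow321. With the scaling to control features, r was 0.22 in limited stress cows and 0.38 in stressed cows, and neither passed (permutation p = 0.400 and 0.150). The difference between ETS2 and IFRD1 in these correlations was not tested.

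**Figure D4:**
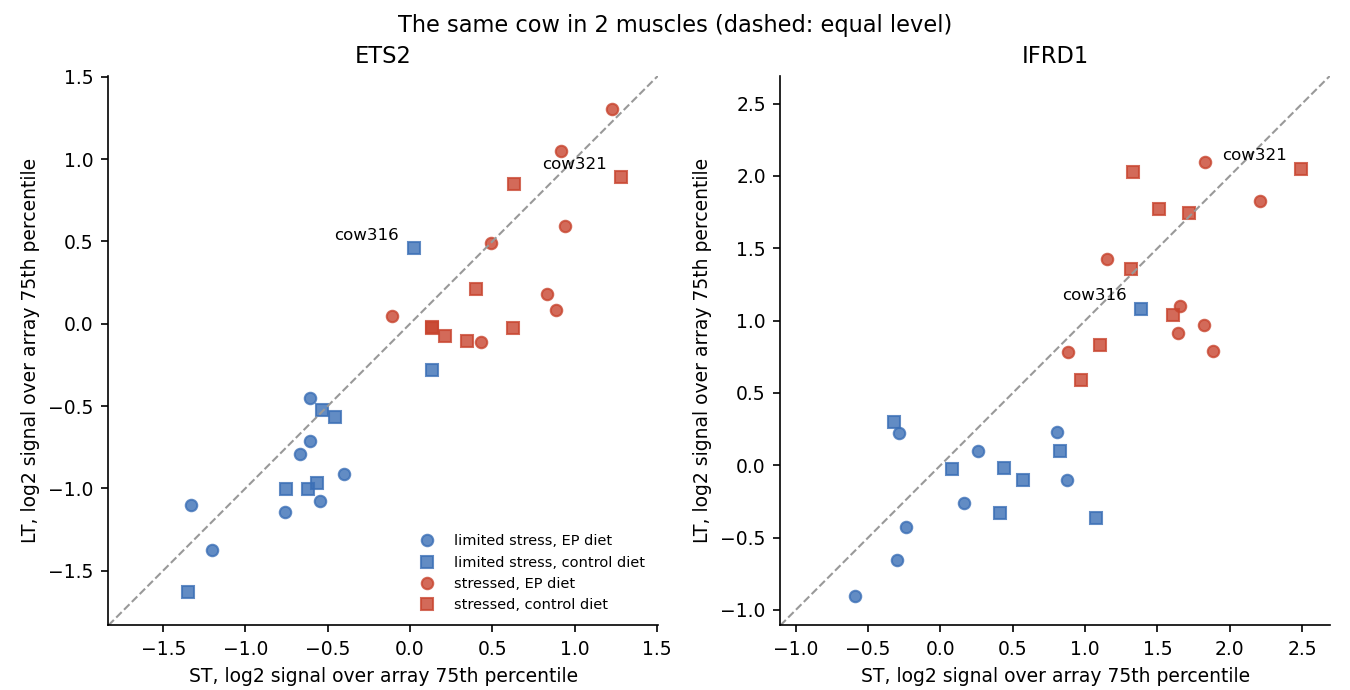
Level in the LT (y axis) against level in the ST of the same cow (x axis), both as log2 signal over the 75th percentile of the array, for ETS2 and IFRD1 in 32 cows; the dashed line marks equal levels. Blue points are limited stress cows and red points stressed cows, and cow316 lies among or beside the stressed cows in both panels.

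ETS2 and IFRD1 also varied together over cows of the same stress group. In the LT, r was 0.65 in limited stress cows (permutation p = 0.0107, adjusted p = 0.0171) and 0.56 in stressed cows (permutation p = 0.0254, adjusted p = 0.0320). The corresponding rho were 0.53 (permutation p = 0.0372, adjusted p = 0.0609) and 0.53 (permutation p = 0.0380, adjusted p = 0.0609). In the ST, r was 0.62 in limited stress cows (permutation p = 0.0095, adjusted p = 0.0171) and 0.74 in stressed cows (permutation p = 0.0011, adjusted p = 0.00293). Here rho was 0.39 in limited stress cows (permutation p = 0.135, adjusted p = 0.154) and 0.73 in stressed cows (permutation p = 0.00199, adjusted p = 0.00677). Without the 2 cows farthest from the ETS2 median, r was 0.46 and 0.58 in the LT and 0.58 and 0.56 in the ST. The relation in the LT of limited stress cows did not pass without cow316, where r was 0.33 (permutation p = 0.235). The values of the genes come from the same array, so they share its RNA, labelling and scaling.

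**Figure D5:**
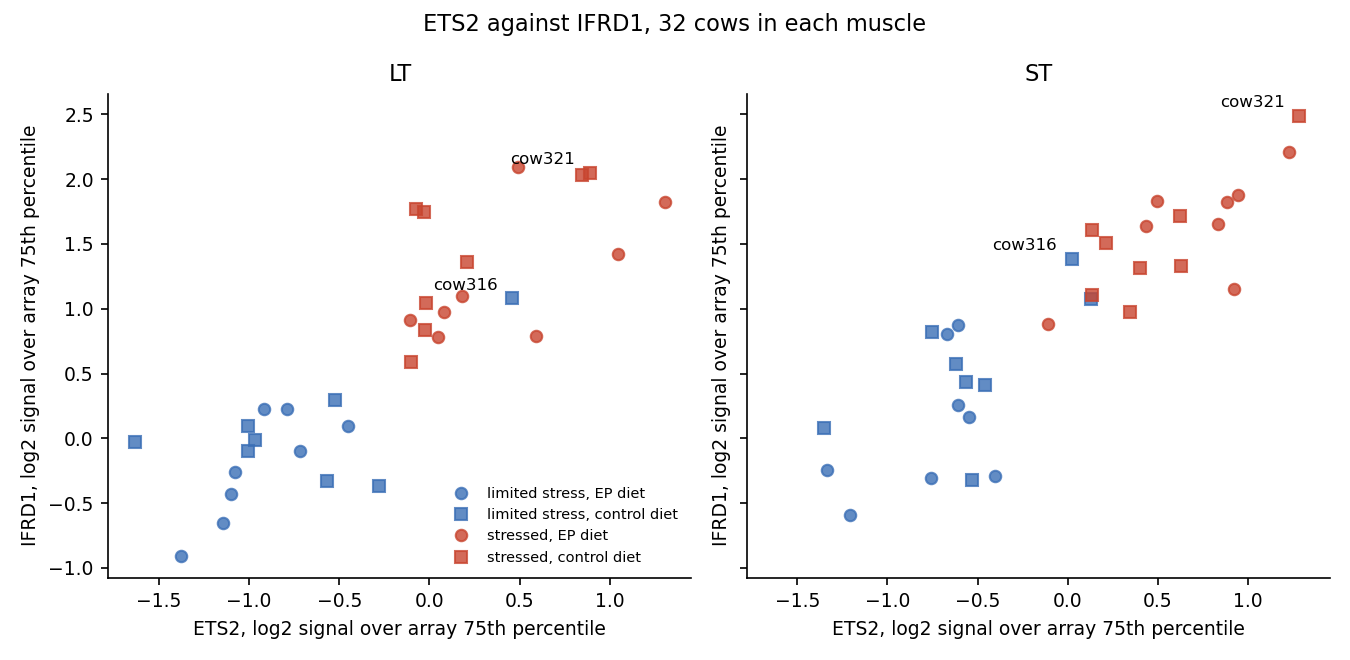
IFRD1 (y axis) against ETS2 (x axis) in the LT and the ST of 32 cows, both as log2 signal over the 75th percentile of the array. Within the blue points (limited stress) and within the red points (stressed), cows high in ETS2 tend to be high in IFRD1, with r from 0.56 to 0.74. These r take both diets together.

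Some cows kept their place in all 4 readings, that is both genes in both muscles. Among limited stress cows, cow316 ranked 1 or 2 of 16 in every reading. Its ETS2 values were 0.46 in the LT and 0.02 in the ST, and its IFRD1 values were 1.08 and 1.39, levels reached by stressed cows. Among stressed cows, cow321 ranked between 1 and 3 and cow303 between 1 and 4. At the low end, cow280 ranked 14 to 16 among limited stress cows and cow265 ranked 12 to 16 among stressed cows. In all, 1 limited stress cow was in the upper 8 of all 4 readings and 3 were in the lower 8 of all. For stressed cows the counts were 2 and 4. Ranks were taken over both diets together, and the counts expected without any relation were not computed. Of these limited stress cows, cow316 (upper) was on the control diet, and cow280, cow304 and cow331 (lower) were on the EP diet. Of the stressed cows, cow321 (upper) and cow265, cow305 and cow311 (lower) were on the control diet. Cow303 (upper) and cow330 (lower) were on the EP diet. The plasma cortisol and heart rate of single cows were not used here.

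The named genes whose levels followed the members most closely over cows were found after removing the means of the 4 groups of stress and diet, by the lower of the r of the LT and the ST (32 cows each, 1854 names compared). IFRD1 was the closest of these names to ETS2 and ETS2 the closest to IFRD1, with r of 0.63 (LT) and 0.64 (ST). The median of the lower r was -0.12 over all names for ETS2 and -0.17 for IFRD1. After IFRD1, the names closest to ETS2 were FOSL1 and JUNB, subunits of the AP-1 transcription factor, then the RNA helicase DDX5 and the stress-induced transcription factor ATF3. Their r were 0.55 in both muscles for FOSL1, 0.54 and 0.59 for JUNB, 0.52 and 0.53 for DDX5, and 0.52 and 0.63 for ATF3 (LT and ST). After ETS2, the names closest to IFRD1 were FOSL1 (0.55 and 0.79), ATF3 (0.68 and 0.52), the ubiquitin ligase SMURF2 (0.54 and 0.49) and the proteasome subunit PSMD12 (0.49 and 0.44). With the slide also removed, 4 of the 5 names stayed among the closest 5 for ETS2 and all 5 for IFRD1.

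These neighbours differed in their own response to stress. FOSL1 rose in the LT by 1.74 (adjusted p = 0.00337 by limma) and in the ST by 1.69 (adjusted p = 0.0369). ATF3 rose by 1.45 in the LT (adjusted p = 0.000843) and by 1.95 in the ST (adjusted p = 0.00498). JUNB, a member of the list of known ETS2 targets, had a stress difference of 0.04 in the LT (adjusted p = 0.943) and 0.56 in the ST (adjusted p = 0.366), although it followed ETS2 from cow to cow. PSMD12 had differences of 0.02 and -0.05 (adjusted p = 0.898 and 0.795). SMURF2 rose in the LT by 0.46 (adjusted p = 0.0101) and had a difference of 0.17 in the ST (adjusted p = 0.195). DDX5 rose in the LT by 0.30 (adjusted p = 0.0663), with 0.27 in the ST (adjusted p = 0.286).

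The pathways around the members were covered only in part by names on the array, since 25 of 104 listed genes had a named probe. Of these, 24 were tested for stress in the LT, where 3 were higher and 1 was lower in stressed cows. In the ST, 23 were tested, of which 2 were higher and 1 was lower. Over all names tested, 2.2% were higher and 1.53% lower in the LT, and 1.51% were higher and 2.12% lower in the ST. The median stress difference of the listed genes was -0.02 in the LT and -0.09 in the ST, beside -0.05 and -0.06 over all probes. With a list this small, a difference of 1 or 2 genes moves the share by several points, and the lists were set with earlier results of these data known.

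On the ERK route to ETS2, 5 of 21 listed genes were tested in each muscle. DUSP1, the phosphatase that switches MAP kinases off, was higher in stressed cows by 0.34 in the LT (SE 0.110, adjusted p = 0.0994 by limma) and by 0.38 in the ST (SE 0.106, adjusted p = 0.0496). With control features as scaling its difference was 0.16 in the LT (adjusted p = 0.585) and 0.47 in the ST (adjusted p = 0.970). Without scaling it was 0.37 in the LT (adjusted p = 0.129), and once the slide entered the model it was 0.43 in the ST (adjusted p = 0.139). The receptor EGFR and the co-activator CREBBP did not pass in either muscle. Of the other members of the ETS family, SPDEF was the single one of 26 with a named probe, and its difference was -0.06 in the LT and 0.18 in the ST, neither past the threshold. Of 12 genes known as targets of ETS2, 6 were tested in the LT and 5 in the ST, and 0 passed by limma in either muscle, with 1 in each muscle at an unadjusted p under 0.05. Their differences ran from -0.35 for PLAU, the urokinase protease, to 0.09 in the LT. In the ST they ran from -0.28 for PLAU to 0.56 for JUNB. The target counts at an unadjusted p under 0.05 stand beside 1674 of 10441 LT probes and 1790 of 10305 ST probes.

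Of the relatives and partners of IFRD1, 8 of 24 listed genes were tested in each muscle. BTG1, an antiproliferative co-regulator, was higher in the LT by 0.72 (SE 0.173, adjusted p = 0.0136), and its difference was 0.38 in the ST (adjusted p = 0.216). With the scaling to control features it did not pass in the LT (0.54, adjusted p = 0.409). MYOD1, the myogenic factor MyoD, fell by 0.69 in log2 units in LT (SE 0.180, adjusted p = 0.0261), and its difference in the ST was -0.61 (SE 0.239, adjusted p = 0.179). HDAC3, a histone deacetylase, fell by 0.15 in log2 units in the ST (SE 0.0407, adjusted p = 0.0403), with -0.20 in the LT (adjusted p = 0.148), and the ST difference was -0.0013 without scaling (adjusted p = 0.993), -0.055 when scaled to control features (adjusted p = 0.9999) and -0.12 once the slide entered the model (adjusted p = 0.310). Whether these differences differed between muscles was not tested for each gene. Of the ATF4 and integrated stress response genes, 4 of 21 were tested, and ATF3 was the one that passed, in both muscles, while the chaperone HSPA5 had differences of 0.07 and 0.12 (adjusted p = 0.628 and 0.516).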

How the data were processed

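Scanner intensities were deposited by the authors as Agilent Feature Extraction wrote them, after subtraction of background and spatial detrending, and neither scaled between arrays nor on a log2 scale. Here each intensity was divided by the 75th percentile of the non-control spots of its array and log2 transformed. The study's methods scale to control probes and then divide each probe by its median over arrays. The files mark 536 control features, fewer than those methods count, and their median of 3.24 units was near background, so scaling to them served as an alternative. Spots set aside by the software were left out, and spots of a probe were averaged. The filter kept a probe if it was well above background on 11 or more of a muscle's 32 arrays, and the tests were made with limma 3.58.1 in R 4.3.3, with 4 groups per muscle, or 8 groups over 64 arrays for contrasts between muscles. Two-sided p-values were adjusted (Benjamini-Hochberg) across all probes tested, with a threshold of 0.1. A gene was called when 80% of its probes passed in 1 direction. Correlations within a stress group kept the diet means in and used 100000 permutations in scipy 1.17.1. Precision is limited by how many arrays there were.

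Both muscles of an animal carry its cow number in the labels, and the consensus correlation of the probes within a cow was 0.41. Named genes were the members, listed genes past the threshold, the 5 names most like each member, unnamed probe sets sharing at least 25 bases with a member, and genes with an outlying cow. The RefSeq table (assembly ARS-UCD2.0) gave the same symbols for both transcripts. The fits were tested on simulated data. The members and lists were chosen with earlier results of these data known. A planned search of promoter motifs was not run, since no promoter sequences were used here. One listed gene is not reported here.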

Additional observations from a re-analysis of the deposited data

Results flagged for a closer look

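In the 16 groups of 8 cows (each gene, muscle, handling and diet), the highest or lowest cow stood apart from the others by Dixon's criterion in 2 groups, where chance gives about 1 in 20 groups. ETS2 in the ST of stressed cows on the control diet was 1.28 in cow321, and the next cow had 0.63. IFRD1 in the LT of limited stress cows on the control diet was 1.08 in cow316, and the next cow had 0.30. The share of spots well above background was 76.4% for cow321 in the ST and 75.9% for cow316 in the LT, beside a median of 76.7% over all arrays. The software set aside 45 spots on the array of cow321 in the ST and 8 on that of cow316 in the LT. The median over all arrays was 13.5, with a range from 0 to 130. The part of array or RNA quality was not tested. None of the interactions of stress with diet or with muscle passed for either gene.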

How the results depend on the processing

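The stress difference kept its sign under every alternative run, between 0.97 and 1.23 for ETS2 in the LT, 1.21 and 1.38 for ETS2 in the ST, 1.23 and 1.48 for IFRD1 in the LT, and 1.18 and 1.40 for IFRD1 in the ST. The stress contrast on these same arrays chose the genes, so a kept sign is largely built into the choice. Scaling to the control features moved the median stress difference of all probes from -0.05 to -0.23 in the LT. Of 186 recomputed values, 154 kept their sign and their side of the threshold or, for counts of genes, stayed within 1.5 times the count reported. These 154 include every recomputed stress difference of the members. The cause of the other changes was not tested.

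With the control features as scaling, signs turned for the diet difference of ETS2 (0.19 in the LT, 0.060 in the ST), the stress by diet interaction of IFRD1 in the LT (-0.19), the muscle difference of ETS2 in limited stress cows (0.15) and the muscle by stress interaction of IFRD1 (-0.12). The IFRD1 muscle difference of limited stress cows no longer passed there (-0.070), without scaling (-0.21) or with the slide as a random block (-0.37). Without scaling, that of ETS2 was 0.0073. The ETS2 diet difference in the LT was 0.035 with the slide as a block. Without the cow farthest from its group median, it was 0.076 in the LT and 0.048 in the ST, and the IFRD1 stress by diet interaction in the LT was -0.028. With the cow as a replicate block, the ETS2 muscle difference of stressed cows (-0.25) passed, and no other call changed.

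Correlations between the muscles no longer passed with the control features for ETS2 in limited stress cows (r = 0.35) and for IFRD1 in limited stress (r = 0.22) and stressed cows (r = 0.38). Without scaling, those of IFRD1 were 0.43 and 0.39, and after normexp and quantile normalization that of stressed cows was 0.45. Without cow316, r in limited stress cows was 0.32 for IFRD1 between the muscles and 0.33 for ETS2 with IFRD1 in the LT. Listed genes higher in stressed cows numbered 1 instead of 3 in the LT with the control features (BTG1 and DUSP1 lost), 2 without scaling or without the filter on dim probes, and 1 instead of 2 in the ST with the control features, the slide or the scan day as a block. Listed genes lower numbered 2 instead of 1 in the LT after normexp and quantile normalization or with the slide as a block. In the ST they numbered 0 instead of 1 with the control features, without scaling, and with the slide or the scan day as a block.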

Other observations

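The places of 3 cows are given for FOSL1, JUNB, DDX5, ATF3, SMURF2 and PSMD12, genes that were chosen because they followed ETS2 or IFRD1 over these same cows, so high or low places are built into the choice. Cow316, the limited stress cow whose ETS2 and IFRD1 reached the levels of stressed cows, ranked 1 of the 16 limited stress cows for ATF3, JUNB and DDX5 in both muscles. For FOSL1 its rank was 1 (LT) and 5 (ST), for SMURF2 6 and 1, and for PSMD12 3 and 7. Cow321, at the top of the stressed cows, ranked 1 in both muscles for FOSL1, DDX5 and PSMD12. These were ranks among 16 stressed cows, except for FOSL1 in the ST, where cow305 had no rank. For ATF3 its rank was 4 (LT) and 1 (ST), for SMURF2 2 and 1, and for JUNB 13 and 5. Cow330, the stressed cow lowest in ETS2 and IFRD1 in the ST, ranked 16 for ATF3 in both muscles and between 7 and 15 for the others. These cows were singled out after their values were seen, and no test was made of them.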
